A study of Oryza sativa with 4 samples.

Results

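The genes described here are the antioxidant and thiol redox enzymes of rice, measured in RNA from whole 3-week-old plants. They comprised the genes whose annotation in the deposited table named a superoxide dismutase, catalase, ascorbate peroxidase, glutathione peroxidase, glutathione reductase, dehydroascorbate or monodehydroascorbate reductase, thioredoxin, glutaredoxin, peroxiredoxin, NADPH oxidase or respiratory burst oxidase. This rule used the annotation and no measured value, and it found 194 transcripts of 165 genes among 37972 transcripts of 31414 genes. Where a gene had several transcripts that the rule matched, the one with the highest mean level stood for it, and 4 genes had a higher transcript whose annotation the rule did not match. The groups compared were NT and OsC3H10OX, each with 2 libraries that the study calls biological replicates. The non-transgenic group (NT) was the rice cultivar Nakdong, and the study's account of its drought test names the same cultivar for OsC3H10OX. The OsC3H10OX group was line 20 in the T4 generation, which carried OsC3H10, a CCCH zinc finger gene that the labels call OsTZF8, behind the PGD1 promoter for overexpression in the whole plant. Only this 1 line was sequenced, so effects of the transgene and of the line cannot be told apart, and the transgene itself was not analysed here.

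Plants keep superoxide and hydrogen peroxide low with a relay of enzymes that is spread over chloroplasts, peroxisomes, mitochondria and the cytosol. NADPH oxidases of the plasma membrane make superoxide, superoxide dismutases turn it into hydrogen peroxide, and catalases, ascorbate peroxidases, glutathione peroxidases and peroxiredoxins break the peroxide down. Glutathione reductase and the dehydroascorbate reductases renew the ascorbate and glutathione that are spent, while thioredoxins and glutaredoxins carry electrons to protein disulfides and to peroxiredoxins. The comparison asked whether its transcripts differed between OsC3H10OX and NT plants.

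Levels were given as FPKM (fragments per kilobase of transcript per mapped fragment, scaled to a fixed library size), and log2 fold changes as OsC3H10OX minus NT on the deposited log2(FPKM + 1) values, which had been quantile-normalized over the 4 libraries. Depth was recovered from the steps between low FPKM values, and 1 FPKM stood for between 37.1 and 56.4 fragments per kilobase, with NT replicate 2 the deepest library. Transcripts with 1 FPKM or more in 2 or more libraries were tested, and called at an adjusted p under 0.05. In whole plants, fewer cells of a type and less RNA per cell cannot be told apart. The 5 shoot marker genes (rubisco small subunits and chlorophyll-binding proteins) summed to 9818 and 9533 FPKM in NT and to 12096 and 13986 FPKM in OsC3H10OX. The 3 root markers summed to 609.6 and 603.1 FPKM in NT and to 523.3 and 484.5 FPKM in OsC3H10OX, and all 8 genes were detected in every library. The markers of a tissue did not all go the same way. RCc3 (Os02g0662000) had 392 and 390 FPKM in NT and 265 and 272 FPKM in OsC3H10OX, while the other root markers, Os02g0745100 and Os03g0107300, had log2 fold changes of 0.21 and 0.18. Of the shoot markers, the rubisco small subunit Os12g0274700 had a log2 fold change of 1.03, the largest, and another, Os12g0292400, had one of -0.18. The part of this difference in the results below was not tested.

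No antioxidant or thiol redox gene was called higher or lower in OsC3H10OX. Of the 165 genes 149 were tested, and 0 were called in either direction, against 0.647% of all 30449 tested transcripts called higher and 0.841% called lower. At an unadjusted p under 0.05 there were 15 members (10.1%), 7 of them higher and 8 lower, beside 17.7% of all tested transcripts. The smallest adjusted p among the members was 0.0751. The median log2 fold change of the 149 tested members was 0.02, with quartiles at -0.12 and 0.16, beside 0.00 and quartiles of -0.18 and 0.18 over all tested transcripts.

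The intervals show how far the data bound these changes. On the log2(FPKM + 1) scale the whole 95% confidence interval lay within 1 of 0 for 137 of the 149 members (91.9%). The same held for 83.6% of all tested transcripts. Because 1 is added to each FPKM, this range is wider than a halving to a doubling of FPKM for scarce transcripts. The shares therefore do not bound the fold changes of scarce transcripts in FPKM. A log2 fold change of at least 1 in size, counted with no test, was reached by 2 members that were higher and by 0 that were lower, against 2.15% and 1.88% of all tested transcripts. On the normalized scale both OsC3H10OX libraries lay above both NT libraries for 38 members (25.5%) and below them for 35 (23.5%), beside 26.8% and 26.1% of all tested transcripts. Apart from the share of intervals within these bounds, which was higher, these shares of the members were close to or under those of the whole table.

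**Figure D1:**
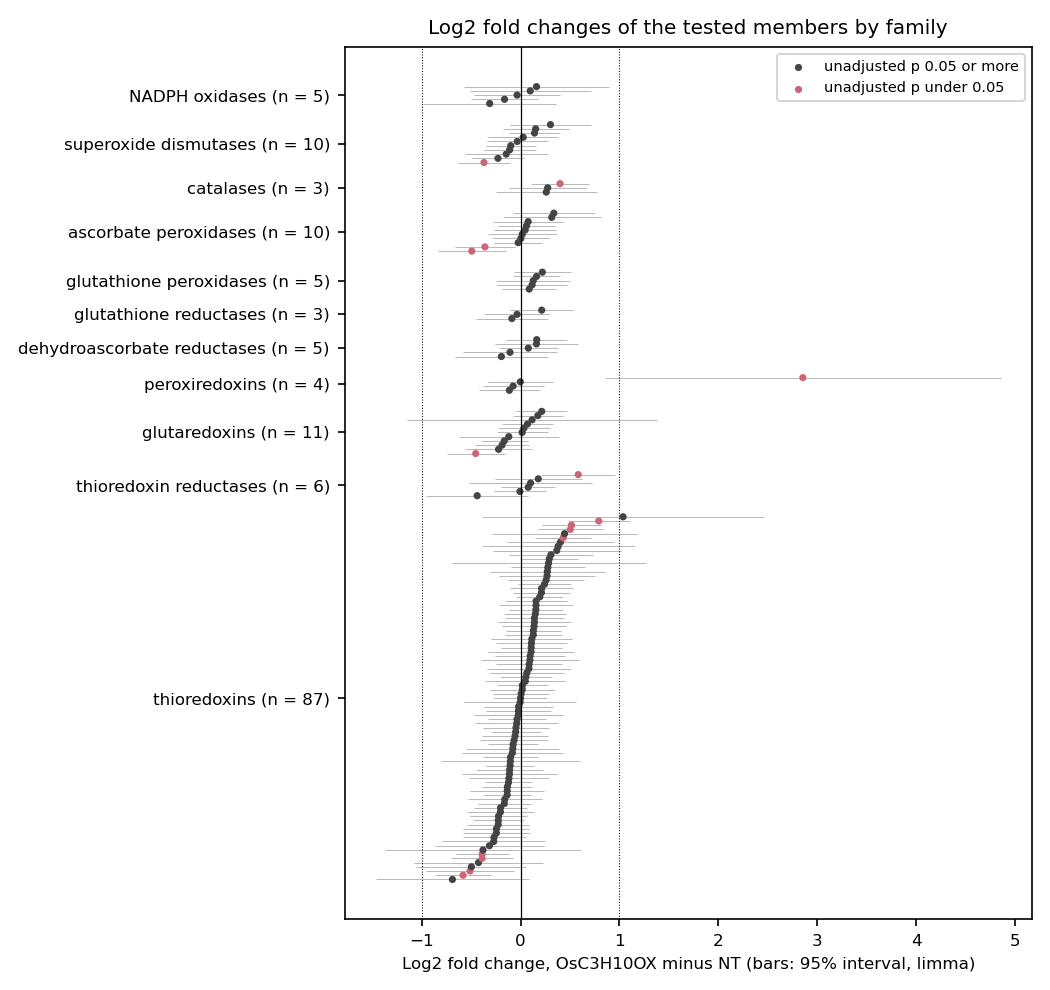
Log2 fold change of each of the 149 tested members (points, OsC3H10OX minus NT) with its 95% interval from limma (grey bars), grouped by family and sorted within it. Dotted lines mark a log2 value of 1 in either direction, and 2 members, a peroxiredoxin and a protein with a thioredoxin fold, lie beyond them.

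The transcripts that stood for the members took up a like part of the transcript pool in both groups. They summed to 10682 and 10748 FPKM in NT and to 9927 and 11557 FPKM in OsC3H10OX. In the same order this was 1.42%, 1.40%, 1.36% and 1.55% of the FPKM of all listed transcripts. Other transcripts of the member genes were not in these sums. The OsC3H10OX libraries lay on either side of the NT libraries. A mean of at least 100 FPKM was reached by 24 members, 92 had between 10 and 100 FPKM, 34 had between 1 and 10 FPKM, and 15 had less than 1 FPKM. The median member had 31.7 FPKM, compared with 8.59 FPKM for all tested transcripts.

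The highest member was catalase A, followed by a thioredoxin (Os12g0188700), a cytosolic-type ascorbate peroxidase (Os07g0694700) and a thioredoxin h (Os07g0186000). The 10 highest members together held 40.6% and 39.8% of the members' FPKM in NT and 39.7% and 42.8% in OsC3H10OX. Os12g0188700, annotated only as a thioredoxin, had 538 and 534 FPKM in NT and 452 and 579 FPKM in OsC3H10OX, so that the groups overlapped.

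**Figure D2:**
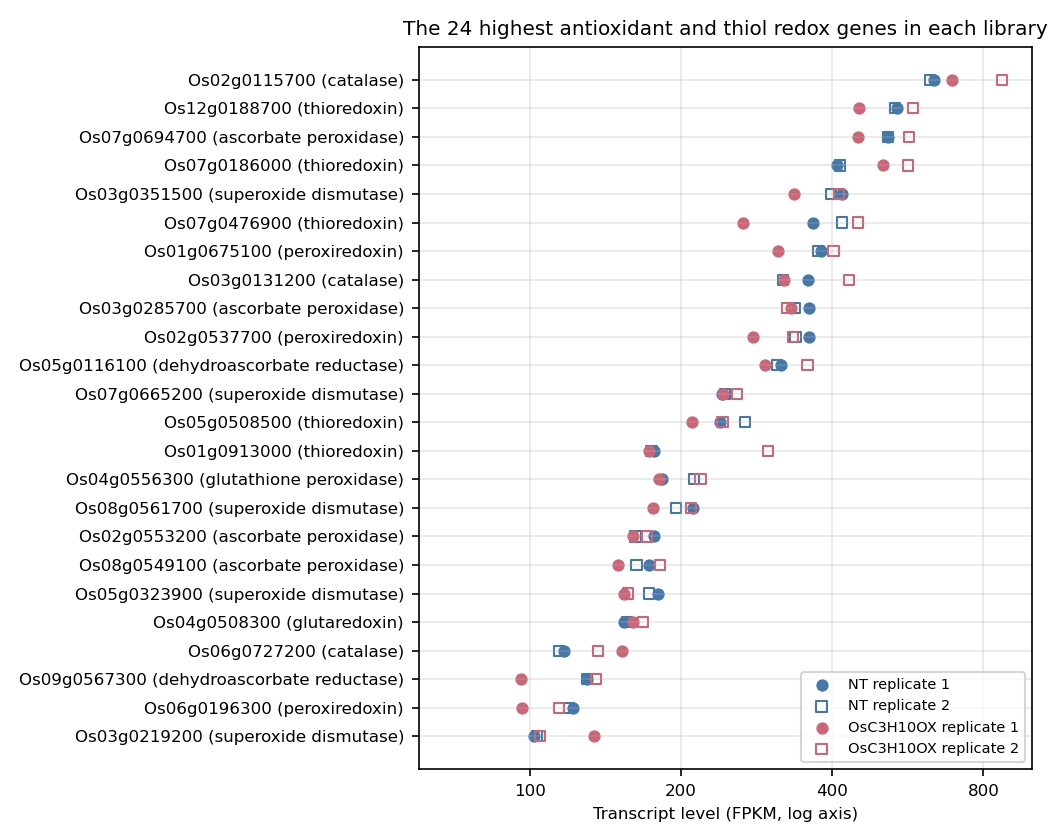
FPKM (log axis) of the 24 members with a mean of at least 100 FPKM, 1 point for each library. Filled circles are replicate 1 and open squares replicate 2, and for most genes replicate 1 of OsC3H10OX lies under replicate 2.

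The NADPH oxidases are the source of superoxide among these genes. Those tested had a median level of 6.84 FPKM, beside 31.7 FPKM for all tested members, and the highest had a mean of 36.1 FPKM. Of 7 genes 5 were tested, with a median log2 fold change of -0.03 and none at an unadjusted p under 0.05. An untested one, Os09g0438000, summed to 11.4 and 12.7 FPKM in NT and to 8.98 and 11.5 FPKM in OsC3H10OX over its transcripts, nearly all of it in a transcript whose annotation the rule did not match. Os01g0360200 (chr1:14621510-14627934, IRGSP-1.0) was the highest, with 38.2 and 38.8 FPKM in NT and 30.5 and 37.0 FPKM in OsC3H10OX. The log2 fold change was -0.16 ± 0.13 (SE, n = 2 against 2, limma adjusted p = 0.546), with both OsC3H10OX values under both NT values. Os01g0734200, a homolog named B, had 4.71 and 7.47 FPKM in NT and 3.97 and 5.39 FPKM in OsC3H10OX, and Os12g0541300 had 1.41 and 1.49 FPKM in NT and 2.63 and 1.08 FPKM in OsC3H10OX. Both overlapped between the groups.

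Os01g0835500, the second highest respiratory burst oxidase, had a small log2 fold change in its main transcript but not in a shorter one. Transcript Os01t0835500-01 had 14.4 and 20.1 FPKM in NT and 15.6 and 21.1 FPKM in OsC3H10OX (log2 difference 0.10). Transcript Os01t0835500-03, which starts further into the gene, had 5.08 and 8.39 FPKM in NT and 1.45 and 2.61 FPKM in OsC3H10OX. The log2 fold change was -1.36, and it was not called (adjusted p = 0.157). Over all its transcripts the gene summed to 20.9 and 33.5 FPKM in NT and to 18.8 and 26.5 FPKM in OsC3H10OX, with overlapping groups.

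The superoxide dismutases held 13.6% of the members' FPKM in NT and 12.7% in OsC3H10OX. The family was set by annotation words and includes proteins that need not act as superoxide dismutases. Among these are Os01g0249200 and Os01g0284500, annotated as similar to nectarin 1, and Os12g0613250, annotated as similar to a BTB/POZ protein. The 10 tested genes of the family had a median log2 fold change of -0.07, and 1 of them had an unadjusted p under 0.05. Os03g0351500 (chr3:13181395-13184453) was the highest, with 419 and 398 FPKM in NT and 335 and 412 FPKM in OsC3H10OX. Os07g0665200, a copper/zinc enzyme, had 241 and 244 FPKM in NT and 242 and 258 FPKM in OsC3H10OX (log2 difference 0.14 ± 0.10, adjusted p = 0.492). On the normalized scale the groups overlapped for Os03g0351500 and did not for Os07g0665200. The 95% intervals of their log2 fold changes ran from -0.34 to 0.27 and from -0.12 to 0.40.

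The lowest value in this family belonged to Os06g0115400 (chr6:864345-866968), annotated as an iron superoxide dismutase of the chloroplast. It had 33.7 and 35.4 FPKM in NT and 25.0 and 27.1 FPKM in OsC3H10OX, with all OsC3H10OX values under all NT values. This was a log2 fold change of -0.37 ± 0.10 (adjusted p = 0.191). The other iron superoxide dismutase, Os06g0143000, had 46.4 and 48.2 FPKM in NT and 44.2 and 40.8 FPKM in OsC3H10OX. The manganese enzyme of the mitochondria, Os05g0323900, had 179 and 173 FPKM in NT and 154 and 157 FPKM in OsC3H10OX, but on the normalized scale its log2 fold change was only -0.10 (adjusted p = 0.619). At the other end stood Os03g0219200, with 102 and 103 FPKM in NT and 134 and 105 FPKM in OsC3H10OX, where replicate 1 alone stood clearly above NT (log2 difference 0.30, adjusted p = 0.385).

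The 3 catalases, which break hydrogen peroxide down without a reductant, all had higher means in OsC3H10OX. Catalase A (Os02g0115700, chr2:825045-827640) had 637 and 627 FPKM in NT and 694 and 871 FPKM in OsC3H10OX. Os03g0131200 (chr3:1787712-1790659), annotated as catalase isozyme 2, had 358 and 320 FPKM in NT and 320 and 432 FPKM in OsC3H10OX. Catalase B (Os06g0727200, chr6:30944197-30948067) had 117 and 114 FPKM in NT and 153 and 137 FPKM in OsC3H10OX. Only catalase B was apart in the FPKM of its groups by more than the gap between replicates.

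The log2 fold changes of the catalases were 0.26 ± 0.19, 0.27 ± 0.15 and 0.40 ± 0.11 in the same order. None was called, with adjusted p of 0.517, 0.402 and 0.203. As a share of the members' FPKM the catalases took 10.1% ± 0.381 (SD, n = 2) in NT and 12.1% ± 0.495 in OsC3H10OX. An exact permutation test of 2 against 2 libraries cannot give a two-sided p under 0.333, so this share was not tested.

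The share depended on which transcripts of catalase A were counted. Os02t0115700-03, a short transcript of 483 nt at the start of the locus (chr2:825040-825872), had 273 and 161 FPKM in NT and 56.4 and 126 FPKM in OsC3H10OX. The log2 fold change was -1.22 (adjusted p = 0.290), opposite in sign to that of the full-length transcript. Summed over its transcripts, catalase A had 912 and 792 FPKM in NT and 755 and 1000.4 FPKM in OsC3H10OX, which gave a log2 fold change of 0.06 (adjusted p = 0.905). With all transcripts counted, the catalases held 12.3% ± 1.07 of the members' FPKM in NT and 13.4% ± 0.653 in OsC3H10OX.

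**Figure D3:**
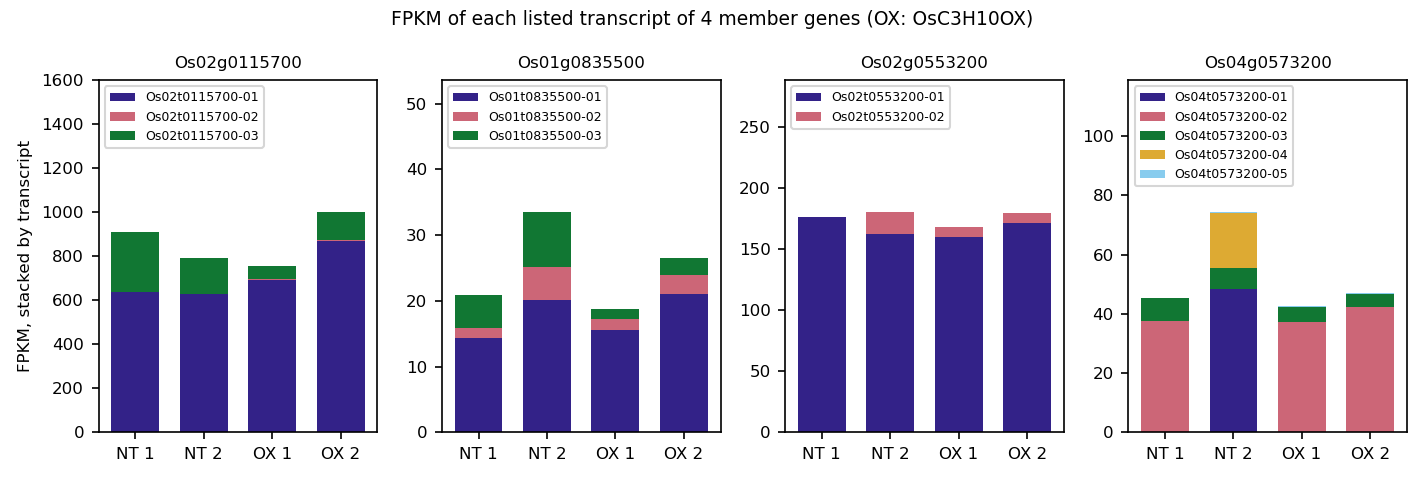
FPKM of each listed transcript, stacked, with 1 bar for each library. The genes are catalase A (Os02g0115700), a respiratory burst oxidase (Os01g0835500), an ascorbate peroxidase annotated as thylakoid-bound (Os02g0553200) and a protein with a copper/zinc superoxide dismutase domain (Os04g0573200). In Os04g0573200 the transcript that holds most of the FPKM in NT replicate 2 is another than in the other 3 libraries.

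Os04g0573200 (chr4:28874419-28878849) was named only by a copper/zinc superoxide dismutase domain. In NT replicate 2 most of its FPKM was in another transcript than in the other libraries, and the cause was not tested. Its transcript -01 had 48.3 FPKM in NT replicate 2 and was near 0 in the other libraries, so it was not tested. Transcript -02, whose annotation the rule did not match, had 37.6 and 0.00114 FPKM in NT and 37.2 and 42.3 FPKM in OsC3H10OX. Over all transcripts the gene had 45.5 and 74.3 FPKM in NT and 42.6 and 47.0 FPKM in OsC3H10OX, and the groups overlapped (log2 fold change -0.33, adjusted p = 0.489). Of the member genes 37 had more than 1 listed transcript, and of the 34 further transcripts that were tested none was called.

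Ascorbate peroxidases reduce hydrogen peroxide with ascorbate, with separate forms in the cytosol, peroxisome and chloroplast. All 10 genes were tested, and their median log2 fold change was 0.03. The cytosolic-type genes were the highest: Os07g0694700 had 516 and 516 FPKM in NT and 450 and 570 FPKM in OsC3H10OX, and Os03g0285700 had 359 and 337 FPKM in NT and 331 and 326 FPKM in OsC3H10OX. This gave log2 fold changes of 0.02 and 0.05, with 95% intervals from -0.33 to 0.37 and from -0.27 to 0.36. For Os03g0285700 the deposited FPKM were lower in OsC3H10OX while the quantile-normalized values were not, and its log2 fold change without normalization was -0.09.

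The peroxisome-type genes had log2 fold changes from 0.08 to 0.34. Os08g0549100 had 172 and 163 FPKM in NT and 150 and 182 FPKM in OsC3H10OX. The scarcer Os04g0223300 had 9.76 and 9.99 FPKM in NT and 10.6 and 14.7 FPKM in OsC3H10OX, and Os09g0538600 had 5.96 and 5.73 FPKM in NT and 8.81 and 6.56 FPKM in OsC3H10OX. The last pair had log2 fold changes of 0.32 and 0.34 and adjusted p of 0.436 and 0.354, each with 1 OsC3H10OX library well above the other.

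The genes annotated as similar to thylakoid-bound forms included the lowest values of the family, and their location was known from the annotation alone. Os04g0434800 (chr4:21622952-21627230) had 62.1 and 62.2 FPKM in NT and 38.2 and 47.1 FPKM in OsC3H10OX, which gave a log2 fold change of -0.49 ± 0.13 (adjusted p = 0.191). Os12g0178200 (chr12:3960527-3964001) had 10.7 and 10.8 FPKM in NT and 7.73 and 8.49 FPKM in OsC3H10OX, which gave a log2 fold change of -0.36 ± 0.11 (adjusted p = 0.237). The NT values of both were nearly the same, and both OsC3H10OX values lay under them. The third and most abundant of them, Os02g0553200 (APx8), had 176 and 162 FPKM in NT and 160 and 171 FPKM in OsC3H10OX.

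Members whose annotation names the chloroplast or the thylakoid were counted after these values had been seen. There were 11, all tested, with a median log2 fold change of -0.04. At an unadjusted p under 0.05 stood 3 of them, the iron superoxide dismutase Os06g0115400 and the ascorbate peroxidases Os04g0434800 and Os12g0178200. All 3 were lower, and none was called. They were 27.3% of the 11, beside 17.7% of all tested transcripts, but the list was made after these 3 were seen, so this share is no test. Of the 11, 5 had log2 fold changes above 0, up to 0.45, and 6 below. The ascorbate peroxidase Os02g0553200, also among the 11, had a log2 fold change of 0.06.

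Glutathione peroxidases, which in plants mostly draw on thioredoxin, all had log2 fold changes a little above 0. The 5 tested genes ran from 0.09 to 0.22, with a median of 0.13. Os04g0556300 (chr4:27838700-27840702) was the highest, with 183 and 212 FPKM in NT and 181 and 219 FPKM in OsC3H10OX. Os02g0664000, of the chloroplast, had 82.8 and 81.0 FPKM in NT and 75.2 and 94.0 FPKM in OsC3H10OX, and Os06g0185900 had 80.1 and 79.9 FPKM in NT and 75.4 and 86.8 FPKM in OsC3H10OX. In each of these genes the OsC3H10OX libraries lay to both sides of at least 1 NT library.

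The largest value in this family was that of Os11g0284900, with 4.90 and 4.83 FPKM in NT and 5.93 and 5.76 FPKM in OsC3H10OX (log2 difference 0.22 ± 0.11, adjusted p = 0.371). Another 3 annotated glutathione peroxidases were under the level for testing, among them neighbours on chromosome 6 (Os06g0185966 and Os06g0186000).

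None of the enzymes that renew ascorbate and glutathione was called. Of the 3 glutathione reductases, the cytosolic Os02g0813500 had 67.6 and 66.9 FPKM in NT and 67.2 and 82.3 FPKM in OsC3H10OX, and Os03g0163300 had 26.6 and 25.3 FPKM in NT and 21.6 and 26.6 FPKM in OsC3H10OX. They had log2 fold changes of 0.21 and -0.09, with adjusted p of 0.417 and 0.765. Dehydroascorbate reductase Os05g0116100 had 316 and 310.1 FPKM in NT and 294 and 357 FPKM in OsC3H10OX. Monodehydroascorbate reductase Os09g0567300 had 130.1 and 129.8 FPKM in NT and 95.9 and 135 FPKM in OsC3H10OX. On the normalized scale both OsC3H10OX libraries lay above both NT libraries for Os02g0813500 and Os05g0116100. The groups overlapped for Os03g0163300 and Os09g0567300. In all 5 dehydroascorbate and monodehydroascorbate reductases replicate 1 of OsC3H10OX was lower than replicate 2, and their median log2 fold change was 0.08.

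Peroxiredoxins reduce peroxides with a cysteine and are recharged by thioredoxins, and 3 of the 4 genes were abundant, with small log2 fold changes. Os01g0675100 had 380 and 376 FPKM in NT and 311 and 402 FPKM in OsC3H10OX. The chloroplast enzyme of the 2-Cys type, Os02g0537700, had 359 and 338 FPKM in NT and 278 and 334 FPKM in OsC3H10OX, and peroxiredoxin Q (Os06g0196300) had 122 and 119 FPKM in NT and 96.3 and 114 FPKM in OsC3H10OX. Although the FPKM means were lower in OsC3H10OX, the log2 fold changes on the normalized scale were -0.00, -0.08 and -0.11, with adjusted p of 0.995, 0.761 and 0.636.

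The 1-Cys peroxiredoxin gene Os07g0638400 (chr7:26551675-26552939) had the largest difference of all members. This type is best known from cereal seeds, where it is made in the embryo and aleurone. It had 1.62 and 2.07 FPKM in NT, or about 52 and 102 fragments, and 41.6 and 8.50 FPKM in OsC3H10OX, or about 1479 and 278 fragments. Both OsC3H10OX libraries were above both NT libraries, but they also differed several-fold from each other, replicate 1 being the higher.

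The log2 fold change of this gene was 2.86 ± 0.75, with a 95% interval from 0.85 to 4.86, and it was not called (adjusted p = 0.191). Without OsC3H10OX replicate 2 the log2 fold change was 3.94 and the gene was called (adjusted p = 0.0178). That fit holds 1 OsC3H10OX library, so its spread came from the NT pair and from the other transcripts, and the several-fold gap between the OsC3H10OX libraries did not enter it. Over the 13 alternative analyses its log2 fold change lay between 1.77 and 3.94 and its adjusted p between 0.0178 and 0.600. It was higher in OsC3H10OX in all of them, by an amount that hung on the library used.

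**Figure D4:**
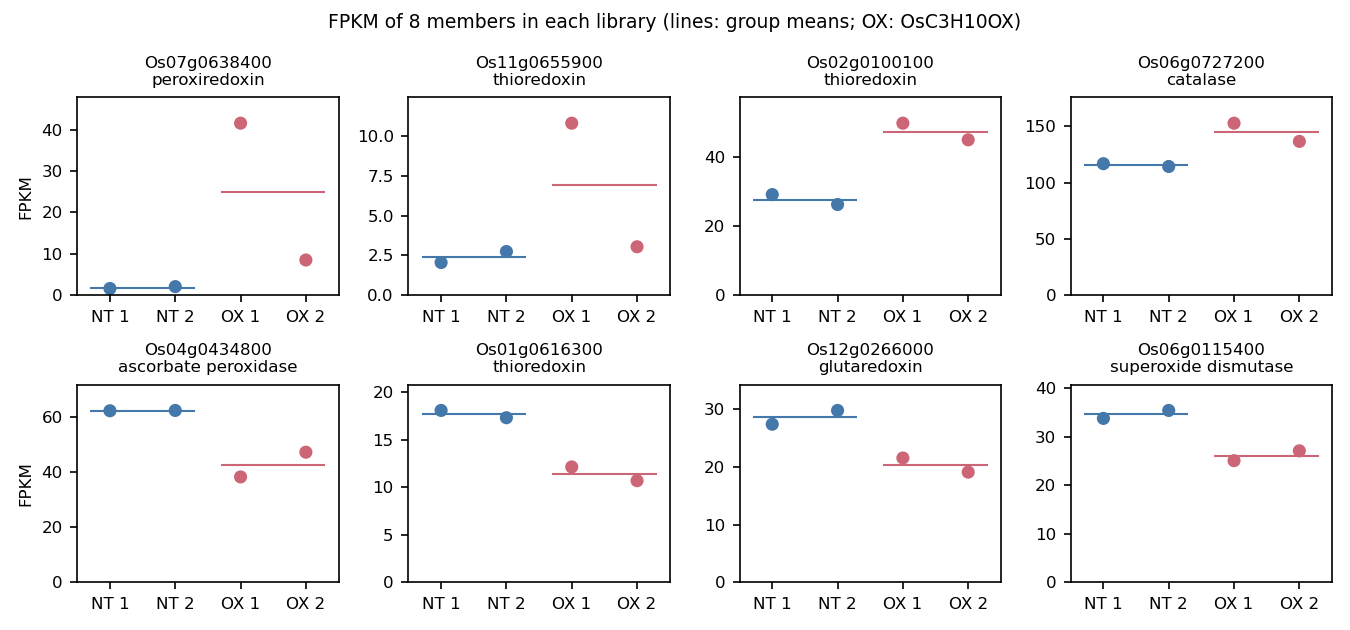
FPKM of 8 members in each library (points) with the group means (lines), each panel on its own axis from 0. The upper row shows members with higher OsC3H10OX values and the lower row members with lower ones; in Os07g0638400 and Os11g0655900 replicate 1 of OsC3H10OX is far above replicate 2.

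Glutaredoxins reduce disulfides with glutathione, and 11 of 17 genes reached the level for testing. Their median log2 fold change was 0.02. Os04g0508300 was the highest, with 154 and 156 FPKM in NT and 160 and 168 FPKM in OsC3H10OX (log2 difference 0.18), and Os06g0659500 had 66.3 and 67.4 FPKM in NT and 57.9 and 56.5 FPKM in OsC3H10OX (log2 difference -0.16). Os02g0618100, a chloroplastic glutaredoxin C4, had 22.5 and 21.8 FPKM in NT and 24.5 and 26.3 FPKM in OsC3H10OX (log2 difference 0.21). The groups of these genes did not overlap, yet the adjusted p were between 0.346 and 0.404.

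The lowest value among the glutaredoxins was that of Os12g0266000 (glutaredoxin C8, chr12:9466295-9468227). It had 27.4 and 29.8 FPKM in NT and 21.6 and 19.1 FPKM in OsC3H10OX, which gave a log2 fold change of -0.45 ± 0.11 (adjusted p = 0.172). The 6 untested glutaredoxins were under 1 FPKM in at least 3 libraries, among them 3 genes annotated as glutaredoxin C13 on chromosome 11 (Os11g0656000, Os11g0656400 and Os11g0656700).

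Thioredoxin reductases pass electrons from NADPH or ferredoxin to thioredoxins. All 6 genes were tested, with a median log2 fold change of 0.09. The genes for the variable chain of ferredoxin-thioredoxin reductase had log2 fold changes of unlike sign in the transcripts measured: the abundant Os02g0638300 had 78.1 and 100.05 FPKM in NT and 53.6 and 71.9 FPKM in OsC3H10OX, and Os04t0528800-01, of the scarce Os04g0528800, had 2.74 and 3.65 FPKM in NT and 5.25 and 5.33 FPKM in OsC3H10OX. The log2 fold changes of the pair were -0.44 ± 0.19 and 0.58 ± 0.14, with adjusted p of 0.334 and 0.171. The scarce form is the minor transcript of its gene. Summed over its transcripts, Os04g0528800 had 13.6 and 14.2 FPKM in NT and 15.9 and 14.2 FPKM in OsC3H10OX, and the log2 fold change was 0.11 (adjusted p = 0.560). The catalytic chain, Os09g0249900, had 112 and 76.5 FPKM in NT and 83.7 and 106 FPKM in OsC3H10OX, so that both groups spanned a like range.

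Thioredoxins and proteins with a thioredoxin fold made up 90 of the 165 members and held 38.2% of the members' FPKM in NT and 38.3% in OsC3H10OX. Of the 87 tested, 43 had log2 fold changes above 0 and 44 below, around a median of -0.00. This family includes many proteins named only by a fold or domain, which need not act as thioredoxins, and 68 of all 165 members were named by such words. The 86 tested members without these words had a median log2 fold change of 0.03, and the 63 with them one of 0.01.

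Thioredoxin h (Os07g0186000, chr7:4574318-4576229), a cytosolic form, was among the most abundant members with non-overlapping groups. It had 409 and 414 FPKM in NT and 504 and 567 FPKM in OsC3H10OX. The log2 fold change was 0.43 ± 0.11 (adjusted p = 0.175), and over the alternative analyses it lay between 0.38 and 0.46. Other h-type genes did not share this pattern: Os05g0508500 had 239 and 268 FPKM in NT and 210.0 and 242 FPKM in OsC3H10OX, and Os03g0800700 had 70.2 and 78.9 FPKM in NT and 54.8 and 65.1 FPKM in OsC3H10OX.

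The member with the smallest adjusted p, 0.0751, was Os02g0100100 (chr2:3633-8377), a protein with a thioredoxin domain, which was named after its values were seen. It had 29.1 and 26.2 FPKM in NT and 49.7 and 44.9 FPKM in OsC3H10OX, which gave a log2 fold change of 0.79 ± 0.12. Os01g0616300, with a thioredoxin core domain and also named after its values were seen, had 18.1 and 17.3 FPKM in NT and 12.1 and 10.7 FPKM in OsC3H10OX, which gave a log2 fold change of -0.58 ± 0.11 (adjusted p = 0.112). In both genes the replicates lay close together and the groups far apart by comparison.

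Os11g0655900 (chr11:26269973-26270560), a protein with a thioredoxin fold that lies next to the glutaredoxin C13 genes, was the other member past a log2 fold change of 1. It had 2.05 and 2.74 FPKM in NT and 10.8 and 3.04 FPKM in OsC3H10OX, which gave a log2 fold change of 1.04 ± 0.53 (adjusted p = 0.388). Without OsC3H10OX replicate 2 it was called, with a log2 fold change of 1.79 (adjusted p = 0.0383), in a fit whose spread likewise came without the gap between the OsC3H10OX libraries. Replicate 2 of OsC3H10OX was near the NT values, so the difference was that of 1 library. The lowest log2 fold change of the members, -0.69 ± 0.29 (adjusted p = 0.321), was that of Os05g0198200, with 37.3 and 45.1 FPKM in NT and 18.7 and 32.5 FPKM in OsC3H10OX.

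For the median member the OsC3H10OX libraries differed from each other more than the NT libraries did. The median gap between replicates of the tested members was 0.09 on the log2 scale in NT and 0.20 in OsC3H10OX, beside 0.12 and 0.17 over all tested transcripts. OsC3H10OX replicate 1 was under replicate 2 for 96 of the 149 members (64.4%), compared with 51.3% of all tested transcripts, and above it for 53, among them Os07g0638400 and Os11g0655900. The median member was at -0.03 in replicate 1 and at 0.08 in replicate 2 relative to the NT mean.

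**Figure D5:**
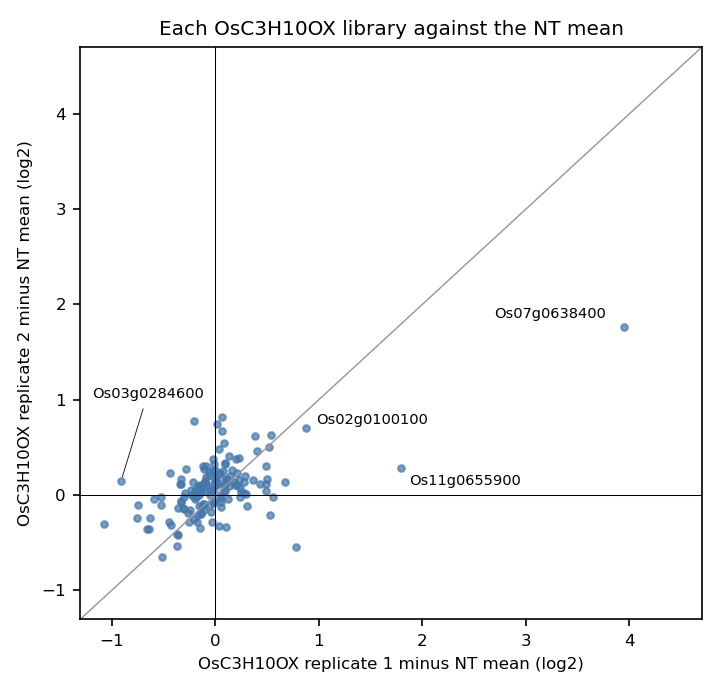
Difference of each OsC3H10OX library from the NT mean (log2) for the 149 tested members, replicate 1 on the x axis and replicate 2 on the y axis, with the line of equality in grey. Most points lie near the origin, and Os07g0638400 and Os11g0655900 lie far to the right of the line.

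Which of these libraries was used decided the only calls among the members. With OsC3H10OX replicate 2 left out, 3 members were called: Os07g0638400 and Os11g0655900, both higher, and Os03g0284600, a thioredoxin-like protein, lower. The last had 35.1 and 36.6 FPKM in NT and 18.4 and 39.1 FPKM in OsC3H10OX, so that its log2 fold change moved from -0.38 to -0.91 (adjusted p = 0.0458) with replicate 1 alone, and here too the lone OsC3H10OX library was assumed to vary like the NT pair. Leaving out any other library, or changing the scale, the filter, the variance model or the unit, left 0 members called.

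Other genes of ascorbate, glutathione and reactive oxygen metabolism, found by annotation words outside the rule for members, numbered 60, of which 52 were tested. These words also matched a few genes of other function, such as proteins that bind the ascorbate oxidase promoter. Of the 52, 0 were called higher and 1 was called lower, and the median log2 fold change was -0.08. At an unadjusted p under 0.05 stood 4 that were higher and 7 that were lower, together 21.2% of the 52 beside 17.7% of all tested transcripts. Of all tested transcripts, 0.647% were called higher and 0.841% lower. The gene called was Os04g0538900, a protein with a glyoxalase/bleomycin resistance domain, with 6.23 and 7.49 FPKM in NT and 2.81 and 2.57 FPKM in OsC3H10OX. The log2 fold change was -1.09 and its adjusted p was 0.0462. The call was lost when any 1 library was left out, with adjusted p from 0.0638 to 0.335, while the log2 fold change stayed between -1.19 and -0.998.

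Ferritins and metallothioneins of this list were named after their values were seen. Ferritin 1 genes, which store iron in the chloroplast, had higher values: Os11g0106700 had 30.2 and 30.0 FPKM in NT and 48.6 and 46.7 FPKM in OsC3H10OX (log2 difference 0.68, adjusted p = 0.0625), and Os12g0106000 had 35.5 and 37.3 FPKM in NT and 49.0 and 60.1 FPKM in OsC3H10OX (log2 difference 0.61, adjusted p = 0.146). Metallothioneins are small cysteine-rich proteins that bind metals. The tested genes annotated as type 1 were all lower, with log2 fold changes from -0.93 (Os12g0570700) to -0.58 (Os12g0571000). In each of them both OsC3H10OX libraries lay under both NT libraries on the normalized scale. The other metallothioneins went both ways. Os12g0570700 had 1644 and 1579 FPKM in NT and 856 and 997 FPKM in OsC3H10OX (log2 difference -0.93, adjusted p = 0.115), while the type 2 gene Os01g0149800 had 478 and 495 FPKM in NT and 669 and 868 FPKM in OsC3H10OX (log2 difference 0.65, adjusted p = 0.221). Another metallothionein, Os12g0567800, had 218 and 239 FPKM in NT and 192 and 206 FPKM in OsC3H10OX (log2 difference -0.09, adjusted p = 0.697). None of these was called. Whether reads were split between the 2 ferritin genes, or between the type 1 metallothioneins, was not tested.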

How the data were processed

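Whole-plant RNA of NT and OsC3H10OX was sequenced, with 2 libraries per group taken from the labels. After trimming (Trimmomatic 0.32) and TopHat mapping to the IRGSP-1.0 genome, the authors deposited FPKM per RAP-DB transcript. The deposited log2 values were, when checked, log2(FPKM + 1) quantile-normalized over the 4 libraries. The table also holds the authors' group means, fold changes and p-values, which were not used. Batches are not stated, so batch and genotype cannot be told apart.

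Values are not counts, so limma 3.58.1 in R 4.3.3 (trend, prior degrees of freedom 2.37, BH adjustment) was run on the deposited log2 values of 30449 transcripts. On simulated data for OsC3H10OX against NT (30449 transcripts), 2%, 76%, 90% and 90% of changes of 1, 2, 3 and 4 on the log2 scale were recovered. The simulated data gave 137 calls and the real data 453, so these rates need not hold for the real data. Members, lists and tests were chosen with earlier results of these data known. Members were named if called, if their log2 fold change was at least 1 in size, or if extreme in level or log2 fold change in their family. Catalases and ascorbate peroxidases from a fixed list were named too (1 of these genes was not analysed here). So were members with another transcript that was called or had a log2 fold change of at least 1 in size. Others were named after their values were seen. With depths recovered from the FPKM steps, 91.9% to 93.1% of low values were whole within 0.05 fragments, in a search range adjusted while looking at the result. Alternatives changed the scale, pseudocount, normalization, filter, unit, variance model, replicate block, libraries and choice of transcripts. Sequences were not analysed here.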

Additional observations from a re-analysis of the deposited data

How the results depend on the processing

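With 2 libraries per group and at the simulated spread, few changes of 1 on the log2 scale would be called, so the absence of calls does not show that the members did not differ. The count of members called was 0 higher and 0 lower under every alternative but 1, and with each library left out in turn it ran from 0 to 2 higher and from 0 to 1 lower, the calls coming without OsC3H10OX replicate 2. Of 556 values of 43 named members, 30 turned in sign and 28 members never turned.

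The count of transcripts called over the whole table was 126 with no filter, 287 with a filter of 5 FPKM, 25 with the replicate block, and 0 to 1029 with 1 library left out, the latter without OsC3H10OX replicate 2 (453 in the main analysis). The 0, without NT replicate 2, came from limma and stood beside 2488 transcripts at an unadjusted p under 0.05. The replicate numbers do not pair the libraries (correlation of deviations -0.03), and with the replicate block 0 members were called.

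Without normalization, at pseudocounts of 1 and 0.1, the median log2 fold changes were -0.143 and -0.145 for superoxide dismutases, -0.0356 and -0.0361 for ascorbate peroxidases, 0.0374 and 0.0377 for glutathione peroxidases, -0.143 and -0.143 for peroxiredoxins and -0.00806 and -0.00835 for glutaredoxins. The named ascorbate peroxidases that turned were then at -0.0282 and -0.0283 (Os02g0553200), -0.0851 and -0.0854 (Os03g0285700), -0.0268 and -0.0269 (Os07g0694700) and -0.0231 and -0.0233 (Os08g0549100), and Os01g0675100 was at 0.00565 with normalization computed again. The glutaredoxin median was -0.0168 with no filter, 0.0252 with a filter of 5 FPKM and -0.0375 over every tested transcript. That of glutathione reductases was 0.0633 with a filter of 5 FPKM, that of superoxide dismutases was -0.105 with FPKM summed per gene and -0.0336 over every tested transcript, and Os01g0835500 was at -0.217 with FPKM summed per gene. The cause of these shifts was not tested.

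With each library left out in turn, the median ran from -0.0344 to 0.077 for all members, -0.054 to 0.102 for ascorbate peroxidases, -0.132 to -0.0218 for glutaredoxins, 0.0107 to 0.234 for glutathione peroxidases and -0.0814 to -0.0276 for superoxide dismutases. Single genes ran from -0.106 to 0.101 (Os01g0675100), -0.125 to 0.32 (Os01g0835500), -0.153 to 0.00199 (Os02g0537700), -0.0141 to 0.135 (Os02g0553200), -0.0248 to 0.258 (Os02g0664000), -0.234 to 0.0589 (Os03g0163300), -0.0355 to 0.129 (Os03g0285700), -0.106 to 0.0391 (Os03g0351500), -0.00368 to 0.261 (Os04g0556300), -0.0991 to 0.134 (Os07g0694700), -0.0578 to 0.212 (Os08g0549100), -0.174 to 0.376 (Os09g0249900), -0.333 to 0.12 (Os09g0567300), -0.131 to 0.0921 (Os12g0188700) and -0.205 to 0.528 (Os12g0541300).

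Summed over all transcripts of the member genes, the shares of the members' FPKM in NT and OsC3H10OX were 0.892% and 0.785% for NADPH oxidases, 12.3% and 13.4% for catalases, 12.3% and 11.9% for ascorbate peroxidases, 3.93% and 4.08% for glutathione peroxidases and 37.2% and 37.7% for thioredoxins, and those in NT were 13.2% for superoxide dismutases, 0.905% for glutathione reductases and 3.98% for glutaredoxins.

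In alternatives chosen after seeing the data, the other redox genes called lower numbered 0 with either scale without normalization, with no filter, with a filter of 5 FPKM and with the replicate block, and 0 to 5 with 1 library left out. With FPKM summed per gene 1 was called higher, Os11g0106700.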
